A study of Mus musculus with 96 samples.

Results

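The transcripts of 7 genes that write, keep or remove methyl groups on cytosine were examined in 96 single mouse cells that are the 2 daughters of 48 divisions. The genes are Dnmt1, Uhrf1, Dnmt3a, Dnmt3b, Tet1, Tet2 and Tet3. They were picked by symbol for their role, with earlier results of these cells known, and each was found once among the 55487 genes of the table. All cells belong to 1 group: wild type horizontal basal cells (HBCs), reserve stem cells that line the base of the olfactory epithelium (OE) and normally do not divide. The OE came from adult mice of 6-8 weeks, 2 days after an injection of methimazole, a drug that injures the epithelium, and per the methods both sexes were used. The HBCs were grown ex vivo, first on a coating of Tropoelastin and then on Fibronectin, so no value comes from tissue. In the study, Fibronectin lowered p63, a regulator of HBCs, and raised Ki67, a marker of dividing cells. After a division both daughters were picked by mouth pipette, and the poly(A) RNA of each was sequenced by G&T-seq. Synthetic ERCC transcripts had been added to each lysate as a spike-in of equal amount. No cell is labelled with its mouse or culture, and the 96 cells were therefore treated as 1 sample: no test was possible, no p-value is given, and every comparison describes these cells alone.

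Methylation of cytosine in CpG dinucleotides is copied onto the new DNA strand at each replication. UHRF1 binds hemimethylated CpG behind the replication fork and brings in DNMT1, which methylates the new strand. DNMT3A and DNMT3B place methyl groups on sites that had none. TET1, TET2 and TET3 oxidise 5-methylcytosine, which can then be lost through replication or replaced by base excision repair. Only transcripts were measured here, not DNA methylation, protein or enzyme activity.

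Between 29454150 and 44849003 counts per cell lay on genes, and ERCC transcripts took 1.06% to 5.75% of all counts. The deposited counts come from read coverage: for ERCC transcripts, 1 count stood for 75 covered bases in the median cell, while the reads were 150 bases long. Counts have no molecular identifiers, so PCR copies are not told apart. Every interval treats cells or pairs as independent draws. The cells are sister pairs from unnamed mice and cultures, and the intervals leave out what such cells share. The 4 HBC markers Trp63, Krt5, Krt14 and Itgb4 were counted in all 96 cells, with a summed level from 154 to 12824 TPM and a median of 6183. Of 23 markers of globose basal, sustentacular, neuronal, immune, mesenchymal and endothelial cells, 6 were at 0 in all cells, among them Kit, Cyp1a2, C1qa and Cdh5. Cd68 was counted in 74 cells and Pecam1 in 92, the latter with 10 or more counts in 5. The summed TPM of each of these marker lists had a Spearman correlation between -0.24 and 0.26 with every enzyme gene that passed the filter given below. Tet1, which did not pass, had 0.39 with the neuronal markers. Their part in the results was not tested.

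Sequence around the start sites was taken from RefSeq for the mouse genome GRCm38.p6, in which all 7 genes matched with 12 windows of 300 bases, 250 before and 50 after an annotated start. The windows were searched on both strands for 4 forms of the E2F motif, which is common at genes switched on for DNA replication: TTTCGCGC, TTTCCCGC, TTTGGCGC and TTTGCCGC. The motif was found in 1 of 3 windows of Dnmt1 and 1 of 2 windows of Uhrf1, and in no window of the other 5 genes. Dnmt3b and the TET genes had 1 window each, so the genes did not have equal chances of a match. Of all 32851 windows, 2.26% held it, and of all 27025 genes, 2.6% held it in at least 1 window. Of the 37 genes of an S phase list used below, 28 matched, and 10 of these, 35.7%, held it. Of 31 matched genes of the G2 and mitosis list, 1 did. The stretches that hold the motif are shown, 5′ to 3′ on the strand of the gene, because Dnmt1 and Uhrf1 are the genes whose transcripts moved with the S phase list. Capitals mark the motif. In Dnmt1 it began at base -219 and at base 34 of the window at chr9:20952574-20952873, counted from the start site. The first stretch lies within 1 annotated exon of Dnmt1 and the second within 2 (GENCODE vM21). In Uhrf1 it began at base -185 of the window at chr17:56304063-56304362. No annotated exon of Uhrf1 holds the whole stretch of 250 bases shown. Whether an exon holds the motif alone was not tested.
Dnmt1, chr9:20952824-20952853, minus strand, motif read on the opposite strand: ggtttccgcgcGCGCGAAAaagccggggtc
Dnmt1, chr9:20952574-20952603, minus strand: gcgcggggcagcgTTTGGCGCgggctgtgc
Uhrf1, chr17:56304063-56304312, plus strand: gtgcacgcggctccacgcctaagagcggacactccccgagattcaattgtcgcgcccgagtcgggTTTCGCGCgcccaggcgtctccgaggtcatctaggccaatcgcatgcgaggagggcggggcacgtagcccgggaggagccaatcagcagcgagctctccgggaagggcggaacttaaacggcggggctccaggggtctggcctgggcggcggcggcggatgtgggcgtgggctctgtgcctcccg
A match of letters is not evidence of binding. Both windows with the motif, which itself holds CpG, had 33 CpG, against a median of 7 over all windows. The other windows of these genes held 2 and 12 in Dnmt1 and 12 in Uhrf1. The Tet2 window held 57 CpG, the 3 Dnmt3a windows 46, 47 and 18, and the windows of Dnmt3b, Tet3 and Tet1 held 30, 22 and 17.

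The enzymes of maintenance methylation had the most abundant transcripts. Uhrf1 (ENSMUSG00000001228, chr17:56303321-56323486, plus strand of GRCm38) was counted in 96 of 96 cells. Its level in TPM, a value scaled to transcript length and library size, ran from 0.484 to 573 with a median of 115. Dnmt1 (ENSMUSG00000004099, chr9:20907209-20959888, minus strand) was counted in 95 cells, from 0 to 206 TPM with a median of 54.3. Uhrf1 was above Dnmt1 in 71 cells and below it in 25, so their ranges overlapped widely. In the 95 cells with both transcripts the median ratio of Uhrf1 to Dnmt1 was 2.08, and it ran from 0.0267 to 444.

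Dnmt3a (ENSMUSG00000020661, chr12:3806007-3914443, plus strand) was the main de novo enzyme, counted in 96 cells with a median of 10.3 TPM and a range from 0.0352 to 56.3. Dnmt3b (ENSMUSG00000027478, chr2:153649450-153687730, plus strand) had a count in 33 of 96 cells, or 34.4% (exact Clopper-Pearson 95% interval 25.0% to 44.8%). In those 33 cells its median was 3.74 TPM and its highest value 58.03 TPM. TPM did not follow counts closely from cell to cell. The cell with the most Dnmt3b counts, 3636, had 39.9 TPM. A cell with 1380 counts had 47.4 TPM, and another with 1395 had 15.1. Levels, orders and shares given in TPM carry this limit. Dnmt3b thus had no count in most libraries, but in 12 cells its TPM stood above that of Dnmt3a. A transcript present in few copies can fail to be captured from a single cell, so a 0 is not evidence that the gene was silent.

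Among the TET genes, Tet2 and Tet3 were the transcripts found. Tet2 (ENSMUSG00000040943, chr3:133463679-133545139, minus strand) was counted in 96 cells with a median of 11.1 TPM and a range from 0.0298 to 57.1. Tet3 (ENSMUSG00000034832, chr6:83362373-83459084, minus strand) was also counted in 96 cells, with a median of 7.31 TPM and a range from 0.0114 to 24.0. Tet1 (ENSMUSG00000047146, chr10:62804570-62908996, minus strand) was counted in 11 cells, or 11.5% (exact 95% interval 5.86% to 19.6%). Only 3 cells had 10 or more counts of it, 173, 119 and 50. Its highest level, 1.21 TPM, came from a cell with 9 counts. At that level the presence of Tet1 in these cells rests on few reads.

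Of the 7 genes, 5, all but Dnmt3b and Tet1, were counted in at least 90% of cells, a share that 14.6% of all genes in the table reached. In order of median TPM, Uhrf1 was followed by Dnmt1, Tet2, Dnmt3a and Tet3. Dnmt1 was above Dnmt3a in 86 cells, above Tet2 in 81 and above Tet3 in 89. The next 3 genes were not separated in this way. Dnmt3a was above Tet2 in 45 cells and below it in 51. Tet2 was above Tet3 in 61 cells, and Dnmt3a was above Tet3 in 60. Dnmt1 made up a median of 81.4% of the summed TPM of the 3 DNA methyltransferases, and was above the sum of Dnmt3a and Dnmt3b in 83 cells. The summed TET genes lay above the summed de novo enzymes in 62 cells. Tet2 gave a median of 62.7% of the TET sum, but from cell to cell its share ran from 0.426% to 99.96%, so in single libraries either gene could be nearly the only TET transcript. All 7 transcripts were counted together in 4 cells. The 12 sets of 8 cells read from the deposited names had median levels from 13.2 to 99.0 TPM for Dnmt1, from 40.0 to 275 for Uhrf1, from 3.28 to 20.7 for Dnmt3a, from 3.17 to 23.8 for Tet2 and from 4.05 to 11.2 for Tet3. The sources used here do not say whether a set was handled together.

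**Figure D1:**
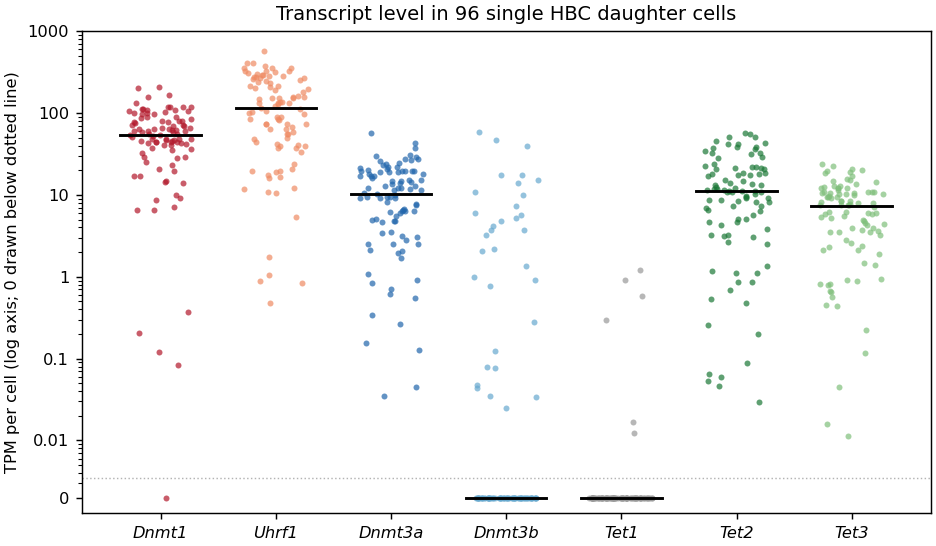
TPM of the 7 genes in each of 96 cells (points) on a log axis, with cells at 0 drawn below the dotted line and the median as a bar. Dnmt1 and Uhrf1 sit highest, with medians of 54.3 and 115 TPM, Dnmt3a, Tet2 and Tet3 overlap, and most cells are at 0 for Dnmt3b and Tet1.

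Near copies could share reads with some of the genes. Gm5648, a processed pseudogene on chromosome X, is 98.3% identical to a Uhrf1 transcript over 1590 bases and was counted in 83 cells, with a median of 18 and at most 213 counts. Dnmt3c, which is 93.3% identical to Dnmt3b over 1655 bases, was counted in 7 cells with at most 99. Antisense genes overlap exons of both Dnmt3a and Tet2: Dnmt3aos shares 133 bases with Dnmt3a and Gm42567 shares 43 with Tet2. They were counted in 2 cells and 1 cell, and the library kit does not keep the strand.

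Daughter cells were compared in counts scaled to the spike-in, and a pair was called different at 1.5-fold after adding 1 count. A gene was tested where at least 10% of cells had 10 counts of it, which held for 14463 genes, among them all of the 7 except Tet1. Over these genes and the 48 pairs, 65.2% of all comparisons between daughters passed, and the median gene passed in 33 pairs. Dnmt1 passed in 29 of 48 pairs (60.4%, exact 95% interval 45.3% to 74.2%) with a median fold of 1.81, and in 17 pairs at a limit of 2-fold. Uhrf1 passed in 30 pairs with a median fold of 1.84. Both lay somewhat below the median gene, whose median fold was 2.39. Dnmt3a passed in 37 pairs with a median fold of 3.37, Tet2 in 34 with 2.53 and Tet3 in 31 with 2.02. Dnmt3b passed in 23 pairs, while 23 pairs had no count of it in either daughter. In the 6 pairs with 10 or more counts in both daughters, 5 passed. Of the 5 genes counted in most cells, none stood far from the share over all genes.

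The 5 ERCC transcripts closest to each gene in mean TPM, which enter every lysate in the same amount, passed in 34 to 40 pairs for Dnmt1, 29 to 42 for Dnmt3a, 29 to 42 for Tet2, 23 to 42 for Tet3 and 8 to 36 for Dnmt3b. The pairs called for these 5 genes were within or, for Dnmt1, below the range of these ERCC transcripts. The reference is not matched on detection: the ERCC transcripts were counted in 87 to 93 cells for Dnmt1, 42 to 71 for Dnmt3a and Tet2 and 29 to 85 for Tet3, whereas the genes were counted in 95 or 96, so their spread includes cells at 0 that the genes do not have. How much of the difference between daughters came from the method was not tested. For Uhrf1 the closest ERCC transcripts passed in 10 to 29 pairs, against 30 for the gene. These 5 are themselves part of the scaling, which narrows their spread.

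The widest pairs with both daughters counted show the size of such differences. For Dnmt1 it was pair 14, with 2097 counts in one daughter and 10 in the other. For Uhrf1 it was pair 4, with 2237 and 96 counts. For Dnmt3a, in pair 8, 2872 counts faced 8, and for Tet2, in pair 35, 2484 faced 6. Tet3 had 1392 and 3 counts in pair 44. Dnmt3b had 497 and 12 in pair 16, and Tet1 173 and 6 in pair 18, its only pair with both daughters counted. In pair 2, one daughter had no Dnmt1 count at all while its sister had 1055. The daughter without Dnmt1 held 35689410 counts on 12516 genes, with 8112 of Uhrf1. It also had 15887 of Rrm2, a subunit of ribonucleotide reductase, and 7147 of Mcm3, a part of the replicative helicase. The sister held 33876464 counts on 11403 genes, the fewest genes of any cell. Whether Dnmt1 was present but not captured was not tested. The same pair had the most Dnmt3b counts of all cells, 1619 in the daughter without Dnmt1 and 3636 in its sister. These features of pair 2 were singled out after their values were seen.

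Daughters of a pair were most alike in Uhrf1, followed by Dnmt1 and Tet2. The intraclass correlation of log2(CPM + 1), where 1 means equal daughters and 0 daughters no closer than unrelated cells, was 0.63 for Uhrf1 and 0.52 for Dnmt1. It was 0.40 for Tet2, 0.28 for Dnmt3b, 0.13 for Dnmt3a and 0.045 for Tet3, with a median of 0.11 over all tested genes. Of the 6 genes, 2 reached 0.5, against 4.4% of all tested genes. Dnmt1 and Tet2 kept no fixed order. With counts scaled to the spike-in the value was 0.61 for Uhrf1, 0.49 for Dnmt1 and 0.45 for Tet2. With each set of 8 cells centred on its mean, it was 0.51 for Uhrf1, 0.31 for Dnmt1 and 0.35 for Tet2. Centring lowers the value by construction, because a set holds only 4 pairs, and it also removes differences between sets. How much of the fall came from each was not tested. With the counts of Gm5648 added, the value of Uhrf1 was again 0.63, and 30 pairs passed 1.5-fold. For Dnmt3b, both daughters were counted in 8 pairs, 1 daughter in 17 and none in 23.

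**Figure D2:**
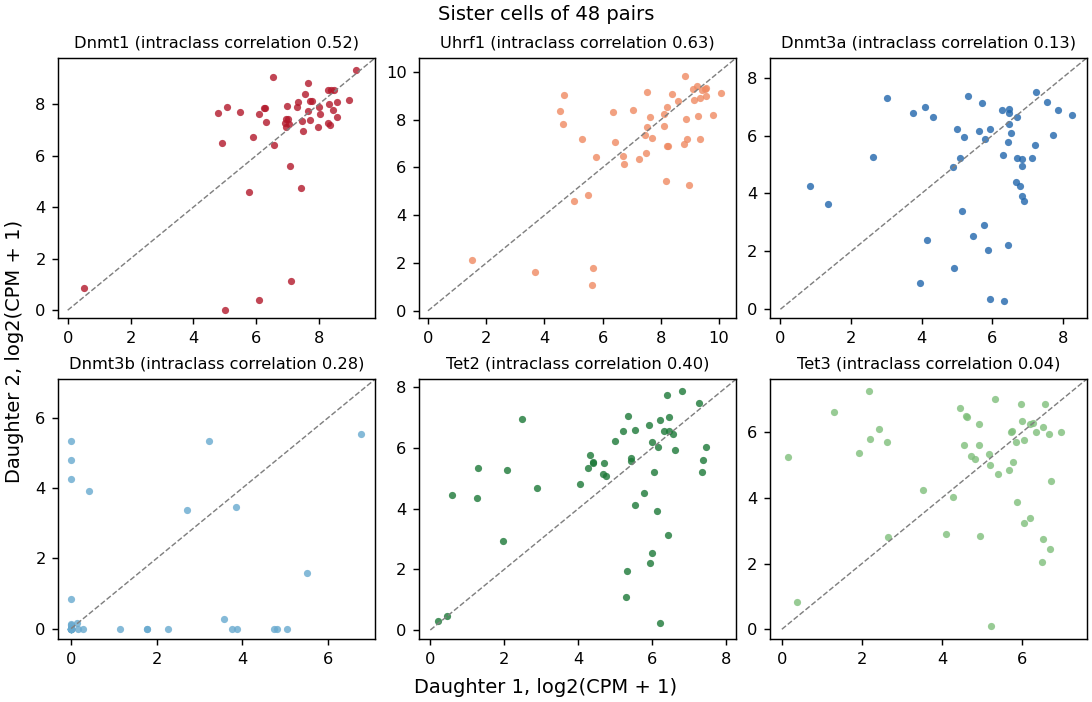
log2(CPM + 1) of the 6 tested genes in daughter 1 (x) against daughter 2 (y) of 48 pairs (points), with a dashed line at equality. Points of Uhrf1 and Dnmt1 run along the line, with intraclass correlations of 0.63 and 0.52, while those of Dnmt3a and Tet3 do not, with 0.13 and 0.045.

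The maintenance genes moved with DNA replication genes across cells, and the others did not. For each cell the mean log2(CPM + 1) was taken over 37 S phase genes, such as Mcm3, Pola1 and Rrm2, none of which is among the 7. Over 96 cells Uhrf1 had a Spearman correlation of 0.81 with this mean, which 0.0277% of the tested genes reached. Dnmt1 had 0.63, which 0.27% reached. These were 2 of 6 genes at or above 0.5, against 0.733% of all tested genes. Dnmt3a had 0.07, Dnmt3b 0.05, Tet2 -0.03 and Tet3 -0.03, and with spike-in scaled counts these 4 lay between 0.11 and 0.15. The cells come in pairs and share library preparation and depth, so the correlations are descriptions without a test. Without the 2 cells farthest from the median of the S phase mean, the values were 0.80 for Uhrf1 and 0.61 for Dnmt1. The S phase mean had a correlation of 0.08 with the ratio of gene to ERCC counts and of 0.26 with the number of genes counted.

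**Figure D3:**
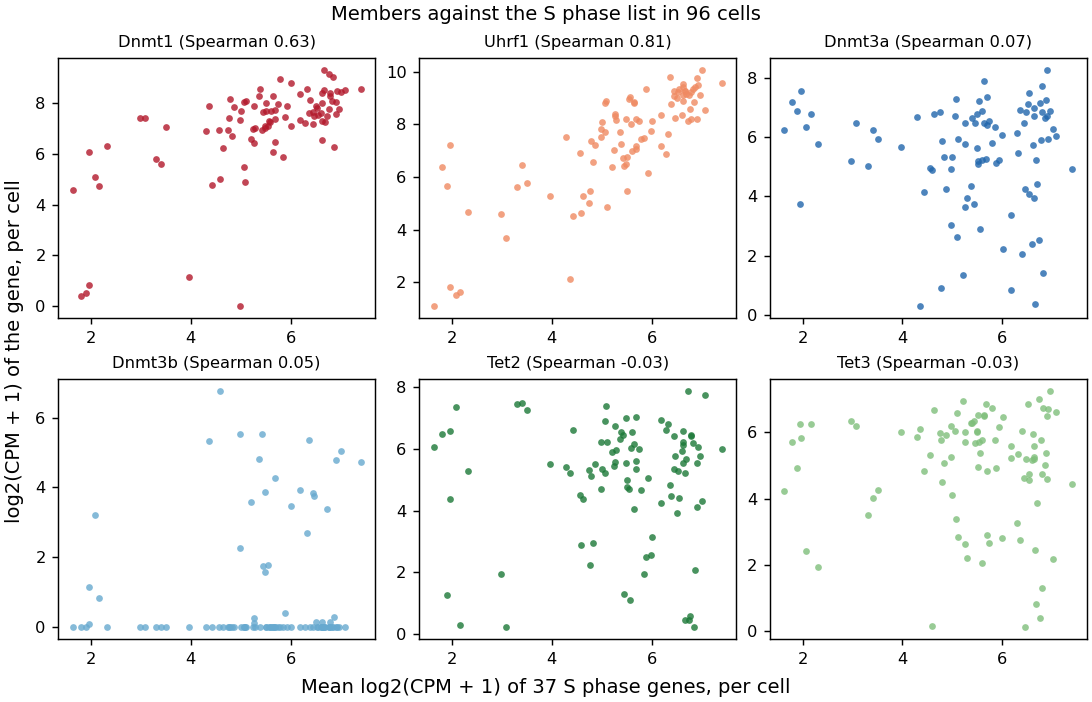
log2(CPM + 1) of each tested gene against the mean of 37 S phase genes in 96 cells (points). Uhrf1 (0.81) and Dnmt1 (0.63) rise with the mean, and Dnmt3a, Dnmt3b, Tet2 and Tet3 lie between -0.03 and 0.07.

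The lowest 14 cells had an S phase mean below 4, a limit set through a continuous range after the plot of levels was seen. They include both daughters of 5 pairs and 1 daughter of 4 pairs, and come from 6 of the 12 sets. The same cells were low in the mean of 34 genes of G2 and mitosis, from 1.22 to 4.47 with a median of 2.41, against 1.84 to 8.12 with a median of 6.06 in the other 82, so the lists fell together in them. Uhrf1 had a median of 15.7 TPM in these cells, from 0.484 to 68.2, and of 137 TPM in the other 82, from 1.76 to 573. Dnmt1 had a median of 12.1 TPM in the 14 cells, from 0.0832 to 53.7, and of 61.2 TPM in the other 82. The 2 groups of cells overlapped for both genes. Dnmt3a, at a median of 13.4 against 9.81 TPM, Tet2, at 12.3 against 10.9, and Tet3, at 5.98 against 7.36, had medians much closer to each other. Within the 82 cells the Spearman correlation with the S phase mean was 0.73 for Uhrf1, 0.48 for Dnmt1 and 0.20 for Dnmt3a. Uhrf1 therefore moved with the S phase genes among these cells too, and Dnmt1 by less.

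The list of G2 and mitosis genes, such as Top2a and Cdk1, gave another picture. No enzyme gene reached 0.5 with its mean, against 1.18% of tested genes. Dnmt1 had 0.19, Dnmt3b 0.13, Tet3 0.10, Uhrf1 0.07, Tet2 0.06 and Dnmt3a -0.12. These values depended on the scaling: with spike-in scaled counts they were 0.36 for Dnmt1, 0.30 for Tet3, 0.24 for Uhrf1, 0.21 for Tet2, 0.14 for Dnmt3b and 0.04 for Dnmt3a. The means of the 2 lists had a Spearman correlation of 0.13 with each other over cells. Pearson correlations were higher, at 0.41 for Uhrf1 and 0.38 for Dnmt1, and fell to 0.31 and 0.30 without the 2 cells farthest from the median of the G2 mean.

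Between daughters of 1 pair the 2 lists could not be separated, since their differences had a correlation through the origin of 0.727. On this measure, in which the numbering of daughters has no effect, Uhrf1 had 0.60 with the S phase list, where 0.519% of tested genes reached 0.5, and 0.59 with the G2 list, where 0.823% did. Dnmt1 had 0.38 and 0.35. The other 4 genes lay between -0.15 and 0.24. Pair 46 was the widest in both lists: its first daughter had 19637 Trp63 and 64 Mki67 counts, its second 37 and 18101, with 11.9 and 249.2 TPM of Uhrf1. Without it, Uhrf1 had 0.52 with the S phase list and 0.497 with the G2 list, just under the limit of 0.5. For Dnmt1, leaving out pair 17 lowered the value with the G2 list to 0.18.

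**Figure D4:**
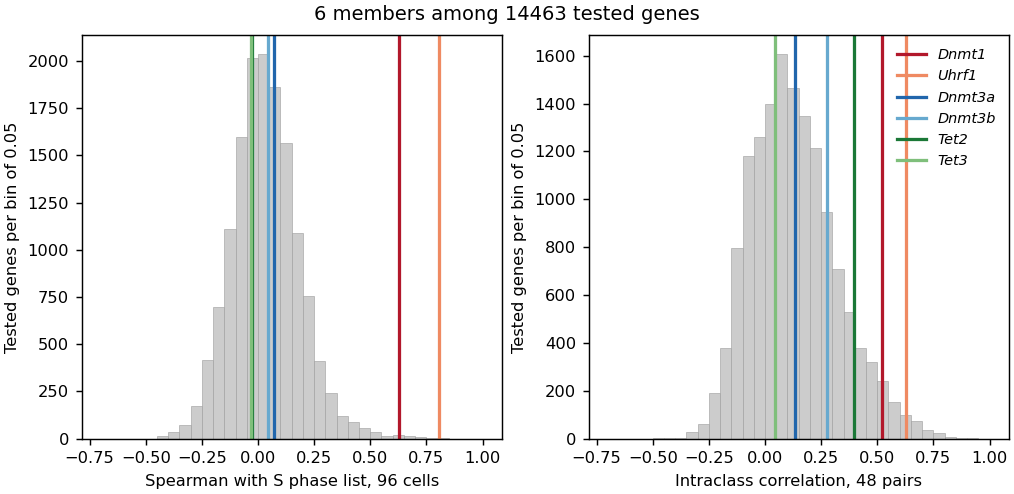
Distribution of 14463 tested genes by Spearman correlation with the S phase list over 96 cells (left) and by intraclass correlation over 48 pairs (right), in bins of 0.05, with the 6 tested enzyme genes as coloured lines. Uhrf1 and Dnmt1 lie in the right tail of both, at 0.81 and 0.63 and at 0.63 and 0.52.

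Among themselves the enzymes moved little together. Dnmt1 and Uhrf1 had a Spearman correlation of 0.46 over cells and of 0.60 over the means of pairs. The other 20 combinations lay between -0.14 and 0.16 over cells. For differences between daughters the correlation through the origin was 0.22 for Dnmt1 and Uhrf1, inside the range of -0.32 to 0.31 of the other 20, so this pair did not stand out there. Uhrf1 was higher in the same daughter as Dnmt1 in 27 of 48 pairs (56.25%, exact 95% interval 41.2% to 70.5%).

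The agreement of daughters with other measures was counted in the same way, over 41 combinations. The daughter higher in Uhrf1 was also the one higher in the S phase mean in 33 of 48 pairs, a count that 2.27% of 7923 genes with a difference in every pair reached, and in the G2 mean in 34, which 1.87% reached. With library totals, median of ratios over genes or TPM the G2 count was 30. The daughter higher in Uhrf1 was higher in the summed histone H3.3 genes H3f3a and H3f3b in 33 pairs, which 5.79% of genes reached. This sum is another measure than that of the study, which called daughters asymmetric by either transcript at 1.5-fold. The H3.3 count was again 33 with the total of ERCC transcripts. It was 28 with library totals, 27 with median of ratios over genes and 26 with TPM. For Dnmt1 the S phase count was 30, which 12.7% of genes reached. With Trp63, the transcript of the HBC regulator p63, Uhrf1 agreed in 23 pairs, Dnmt1 in 24, Dnmt3a in 26 and Tet2 in 21. Tet3 agreed in 15 of 48 pairs (31.25%, exact 95% interval 18.7% to 46.3%), so that the daughter with more Trp63 was mostly the one with less Tet3. Of 7922 genes, 0.694% had a count of 15 or lower, and the other scalings gave 15 or 16. Tet3 was picked out of the 41 combinations after its value was seen.

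The 3 genes whose levels over cells were most like those of each enzyme were taken by Spearman correlation. For Dnmt1 they were Rrm2 with a Spearman correlation of 0.64, Atad5, which unloads PCNA from DNA, with 0.64, and Brca1 with 0.61. For Uhrf1 the closest was its pseudogene Gm5648 with 0.89, which can share its reads, followed by Hells, a chromatin remodeller needed for DNA methylation, with 0.72 and Mcm3 with 0.71. For the other genes no transcript came near these values. The closest were Parp4 with 0.37 for Dnmt3a, 9430037O13Rik with 0.41 for Dnmt3b, Cog5 with 0.40 for Tet2 and Rbx1-ps with 0.45 for Tet3, each the highest of all tested genes.

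Other genes of the pathway were described by lists of their roles. Of 7 partners of maintenance methylation, 4 had a correlation of at least 0.5 with the S phase mean, against 0.733% of all tested genes. The median of the list was 0.51, against 0.03 over all tested genes. The 4 were Hells with 0.79, Pcna, the sliding clamp of replication, with 0.73, Lig1, which joins Okazaki fragments, with 0.54 and Cdca7, which works with HELLS, with 0.51. Uhrf2, the relative of Uhrf1, had 0.28, Usp7, a deubiquitinase of UHRF1 and DNMT1, 0.08 and Zbtb24 0.07. Levels ran from a median of 298 TPM for Pcna to 0.571 for Zbtb24. Hells was counted in all 96 cells, with an intraclass correlation of 0.63, the same as that of Uhrf1 to 2 decimals. Pcna and Lig1 are replication genes in their own right and close to the S phase list by function.

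Of 8 genes of methyl-CpG binding protein families, none reached 0.5, as 0.733% of all tested genes did, and the median was -0.02. The genes were listed by family, which does not mean that each protein binds methylated CpG. Mbd4, a glycosylase that removes thymine from mispaired CpG sites, was highest at 0.45, above the 0.28 that marks the upper 5% of all tested genes, and Zbtb38 lowest at -0.37. Mbd3 had the highest level of this list, a median of 42.2 TPM, and Zbtb4 the lowest, 0.308.

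Of 10 genes of base excision, which follows oxidation by TET enzymes, 7 were counted in at least 90% of cells, against 14.6% of all genes in the table. Of the 10, 9 passed the filter and none reached 0.5, as 0.733% of all tested genes did, and their median was 0.17. Tdg, the glycosylase that removes oxidised methylcytosine, was counted in 95 cells at a median of 58.8 TPM, above each TET gene's median. Apex1, the endonuclease of the pathway, had the highest level, 126 TPM, and the highest correlation, 0.36. Lig3 had the lowest, -0.01, and Neil2 was counted in 8 cells only. Of 7 cofactor genes and regulators of TET enzymes none reached 0.5. Idh1 and Idh2, which make the 2-oxoglutarate that TET enzymes use, had medians of 194 and 193 TPM. Idh1 had the lowest correlation of the list, -0.18. Cxxc4, a regulator of TET2, had the lowest level, a median of 0.0059 TPM.

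**Figure D5:**
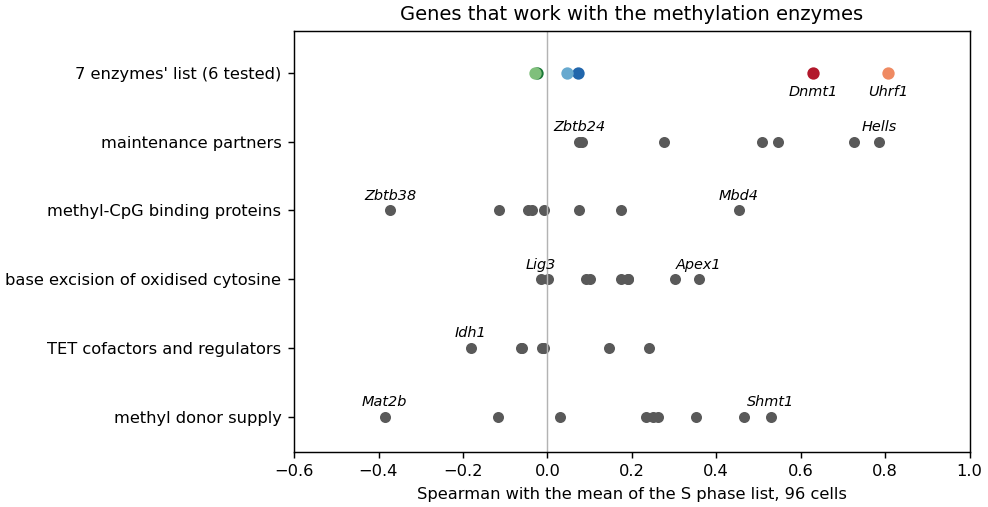
Spearman correlation with the mean of the S phase list over 96 cells for the 6 tested enzyme genes (coloured points) and for the tested genes of 5 lists of the pathway (grey points), with genes at the ends of the lists named where the text gives them. Maintenance partners reach 0.79, and genes of methyl-CpG binding protein families lie between -0.37 and 0.45.

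Of 9 genes that supply methyl donors, 1 reached 0.5, against 0.733% of all tested genes. It was Shmt1, a serine hydroxymethyltransferase of the folate cycle, with 0.53. The median of this list was 0.25, against 0.03 over all tested genes, and Mthfd1 and Shmt2, also of the folate cycle, had 0.47 and 0.35. Mat2a, which makes S-adenosylmethionine, was the most abundant at a median of 362 TPM and had 0.26. Its regulatory partner Mat2b had the lowest value, -0.39. Of the relatives of the DNA methyltransferases, Dnmt3l, the germline cofactor of DNMT3 enzymes, was counted in 1 cell with 7 counts. Trdmt1, which methylates tRNA, was counted in 37 cells. Of 12 germline genes whose promoters are kept silent by methylation in somatic cells, 3 (Asz1, Tex19.1 and Slc25a31) had no count. For each, this allows a share of up to 3.125% of cells with a count, which is a limit on detection and not on expression. No gene of this list was counted in more than 6 cells, and the highest count was 741, of Tdrd1. None of the 12 passed the filter on counts, but only 14463 of the 55487 genes in the table did. Whether methylation kept these genes silent was not tested.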

How the data were processed

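Single cells were processed by G&T-seq with oligo-dT capture and 18 PCR cycles in the study, and 96 libraries were sequenced as 150 bp read pairs in 1 lane. Per the labels, the authors trimmed with Trimmomatic 0.39, aligned with STAR 2.7.11a to GRCm38 (Ensembl release 100) with ERCC sequences, and quantified with StringTie 2.2.1. They deposited raw counts per gene, and per cell tables of TPM and coverage. Coverage of ERCC transcripts was used here only to find that 1 deposited count stands for 75 bases.

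Cells were scaled by median-of-ratios factors (0.378 to 1.89) from those ERCC transcripts with a count in every cell, 22 of 92. Correlations used log2(CPM + 1), with CPM computed from counts on genes, levels between genes used TPM, and differences between daughters used spike-in scaled counts plus 1. Python 3.11.15, numpy 2.4.6, scipy 1.17.1, pandas 2.3.3, matplotlib 3.10.9 and blastn 2.17.0 were used. The calculations were tested on simulated data. The genes named are the 7 members, the 3 genes nearest to each by correlation, and the extremes of each list in TPM and in correlation. Some genes at these extremes are not reported here. Partners beyond them were named after their values were seen. The members and lists were chosen with earlier results of these data known. The limits of 0.5 for correlations and 90% for detection, the motifs and the search for near copies were chosen after values had been seen. The highest Pearson correlation between cells was 0.733, so no library was a copy of another. Alternatives are given in the closing section.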

Additional observations from a re-analysis of the deposited data

How the results depend on the processing

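Of 357 alternative values, 309 stayed close to the value reported, 48 moved and 0 changed sign while past a limit. Detection of the 7 genes moved most with its threshold: at a TPM of at least 1, 2 of them reached 90% of cells instead of 5. The number of genes with an intraclass correlation of at least 0.5 fell from 2 to 1 with counts scaled to the spike-in and also to 1 with values centred on sets of 8 cells. The number of genes correlated with the S phase list fell to 1 when differences between daughters replaced levels over cells. The correlation of Dnmt1 with Uhrf1 was 0.60 over means of pairs and 0.22 for differences between daughters. Without the filter on low counts the median gene passed 1.5-fold in 12 pairs. Leaving out pair 46, the limit at a mean of 4 on the S phase list, spike-in scaling of sister differences and the sum of Uhrf1 with Gm5648 were added after the data were seen. At 2-fold, Dnmt1 passed in 17 pairs. With spike-in scaling the correlations with the G2 list were 0.36 for Dnmt1 and 0.30 for Tet3. Dnmt3b and Tet1 were at 0 in 63 and 85 cells, and their values rest on the few cells with a count.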
